A study of Mus musculus with 6 samples.

Results

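Carbonic anhydrases are zinc enzymes that interconvert carbon dioxide and water with bicarbonate and a proton. In muscle they help carbon dioxide leave the fibre and buffer the acid made during contraction. Members differ by place: Car2, Car3 and Car13 work in the cytosol, Car5b in mitochondria, and Car4, Car9 and Car12 at the cell surface with the active site outside. Car3 is a slow catalyst known for its abundance in slow skeletal muscle, fat and liver of rodents.

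The 7 genes described here are Car2, Car3, Car4, Car5b, Car9, Car12 and Car13, out of 22180 genes measured. They were taken by gene symbol from the probe sets that name 1 gene, 9 probe sets in all, and a gene's value is the mean of its probe sets on the log2 scale. The list was drawn up knowing that Car2 and Car3 were lower in every treated culture, so the treatment differences below are a description without a test.

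The samples were 6 cultures of C2C12, an immortal mouse myoblast line that fuses into myotubes when serum is lowered, measured on 1 Affymetrix whole-transcript array each. In 2% differentiation medium the cultures received TNF-α at 50 ng/ml on day 4, BTZ at 10 nM on day 4, or nothing, and all were harvested on day 5. In growth medium with 10% fetal bovine serum they received TNF-α at 50 ng/ml for 24 h, BTZ at 10 nM for 24 h, or nothing. TNF-α is an inflammatory cytokine, and BTZ, not spelled out in the labels, is the usual short form of the proteasome inhibitor bortezomib. All 6 groups are of this line, were first grown in DMEM with 10% FBS and carry no genetic change named in the labels. None has a second array, so a difference of 2 arrays carries no error and the number of arrays limits precision. Median signal was between 5.01 and 5.11 on the log2 scale over the arrays. The median of all values, 5.06, served as a floor, and 13652 genes reached it on at least 1 array.

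All 7 genes of the muscle identity list (Myod1, Myf5, Myog, Des, Cdh15, Acta1, Ckm) were at or above the floor on every array. Ckm lay close to it with BTZ in differentiation medium (5.29) and with TNF-α (5.28) and BTZ (5.25) in growth medium. The list's mean log2 level was 9.25 with TNF-α, 8.03 with BTZ and 9.83 untreated in differentiation medium, and 7.38, 6.95 and 7.87 in the same order in growth medium. With BTZ 6 of 7 were at least 2-fold lower in differentiation medium and 3 of 7 in growth medium, beside 8.91% and 6.16% of all genes. With TNF-α 1 of 7 and 0 of 7 were, in the same order of media, beside 0.879% and 1.02%. Adipocytes also express Car3 strongly. Of the adipocyte list, Adipoq, Fabp4 and Lep were under the floor on all 6 arrays, while Pparg, a regulator of fat cell formation, was above it on all 6. The Pparg difference was -0.34 for TNF-α and -0.15 for BTZ in differentiation medium and -0.76 and -0.83 in growth medium. Cebpa and Lpl also read lower in all 4 treated cultures, as 14.2% of all genes above the floor did by any size. Lpl was above the floor only in the untreated growth medium culture, at 5.48. Cebpa was under it in growth medium with TNF-α (5.03) and with BTZ (4.81). The part of Pparg, Cebpa and Lpl in the differences below was not tested. Over 9 measured genes of the adipocyte list, 6 reached the floor somewhere, and the list's mean was between 4.83 and 5.21. Plin1, Cidec and Retn were among the 6. In differentiation medium Plin1 read up to 5.35 (BTZ) and Cidec up to 5.37 (TNF-α). Retn read up to 5.07, untreated in growth medium. Of 5 endothelial markers 0 reached the floor. Ptprc and Adgre1, defining markers of leukocytes and macrophages, were under it on all arrays, while Cd14 and Cd68 were above it. Of 8 genes of the macrophage and osteoclast list 5 reached the floor somewhere, Csf1r, Acp5 and Ctsk among them. Cd14 was higher in all 4 treated cultures. Its difference was 0.88 with TNF-α and 1.80 with BTZ in differentiation medium, and 1.02 and 2.01 in growth medium. Cd68 differed most with BTZ in growth medium, by 1.17. The part of these genes in the differences below was not tested. Of the erythroid list only 2 of 6 genes were measured, and 1 of them reached the floor.

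**Figure D1:**
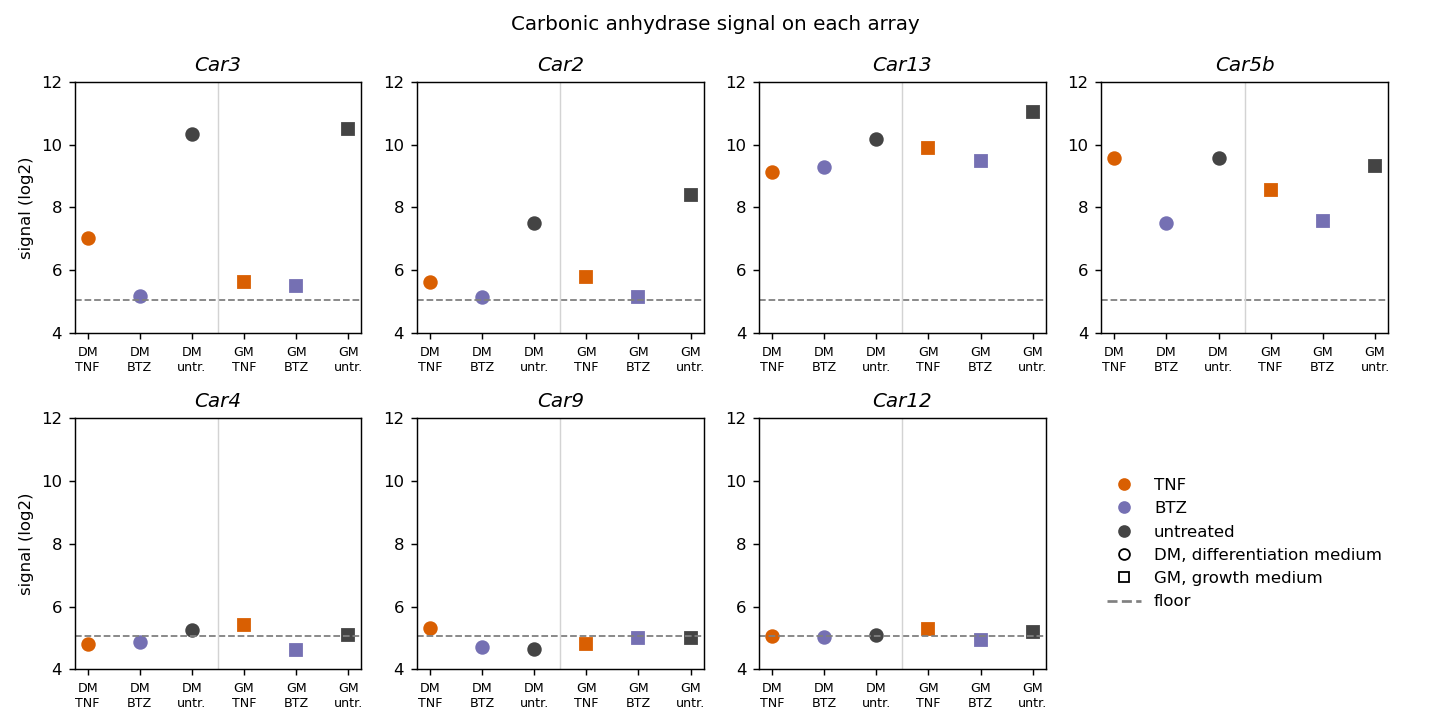
Signal of each carbonic anhydrase (log2, vertical axis) on each of the 6 arrays (horizontal axis), with 1 point per array, differentiation medium (DM, circles) left and growth medium (GM, squares) right, and the floor of 5.06 dashed. Car3 and Car2 stood far lower in all 4 treated cultures than in the untreated ones, Car13 was lower by less, Car5b was lowest with BTZ, and Car4, Car9 and Car12 lay near the floor.

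All 7 members reached the floor, but in different ways. Car2, Car3, Car5b and Car13 were at or above it on all 6 arrays. Car12 was on 4 arrays and Car4 on 3, never by more than 0.22 and 0.36 log2 units. Car9 passed on 1 array, the TNF-α culture in differentiation medium. Of the 2 probe sets of Car9, 17424651 was above the floor on all 6 arrays, between 5.22 and 5.83, and 17413352 on 1.

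Car3 showed the widest span of the members, 5.34 log2 units. Its level was 7.02 with TNF-α, 5.17 with BTZ and 10.33 untreated in differentiation medium. In growth medium it was 5.62 with TNF-α, 5.51 with BTZ and 10.51 untreated. Both untreated cultures were high, 3 treated cultures lay close to the floor, and the TNF-α culture in differentiation medium stood between. The log2 difference to the untreated array of the same medium was -3.32 for TNF-α and -5.16 for BTZ in differentiation medium, and -4.89 and -5.00 in growth medium. In linear terms Car3 was 9.95-fold and 35.9-fold lower in differentiation medium, and 29.6-fold and 31.9-fold lower in growth medium. Among the 13652 genes above the floor, ordered from the lowest difference, Car3 was number 1 in both growth medium comparisons, number 4 for TNF-α and number 3 for BTZ in differentiation medium. In bulk RNA, fewer cells that make a transcript and less transcript per cell cannot be told apart.

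The 2 probe sets that name Car3 gave the same ordering with different depth. Probe set 17396152 read 8.41 with TNF-α, 5.97 with BTZ and 11.81 untreated in differentiation medium, and 6.50, 6.42 and 12.02 in the same order in growth medium. Probe set 17404191 read 5.63, 4.37 and 8.86 in differentiation medium and 4.74, 4.60 and 9.00 in growth medium. Each was high on both untreated arrays and low on all treated ones. The second read under the floor in 3 treated cultures, and its differences were the smaller in every comparison. For the first, the differences were -3.39 and -5.84 for TNF-α and BTZ in differentiation medium and -5.52 and -5.59 in growth medium. For the second they were -3.24 and -4.49, and -4.26 and -4.40. With TNF-α in differentiation medium, where both probe sets stayed above the floor, they differed by least. The annotation used gives no strand or position for 17404191, so what it reads was not checked. Each Car3 gene value includes it.

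**Figure D2:**
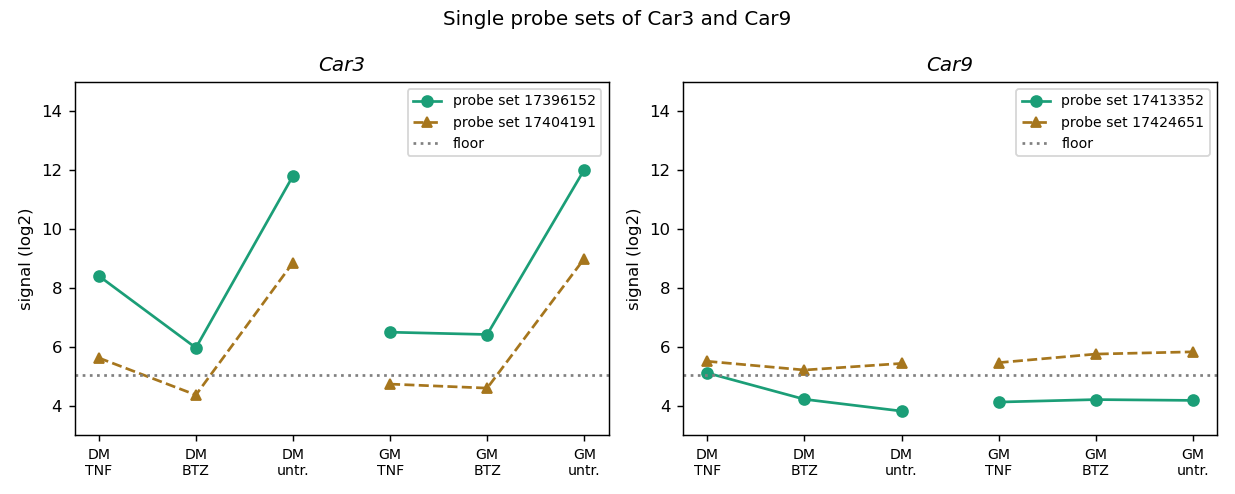
Signal (log2, vertical axis) of the 2 probe sets of Car3 (left) and of Car9 (right) on each array, differentiation medium (DM) left of growth medium (GM) in each panel, lines joining cultures of 1 medium, floor dotted. The Car3 probe sets moved together, 17396152 between 12.02 and 5.97 and 17404191 between 9.00 and 4.37. In the TNF-α culture in differentiation medium, probe set 17413352 of Car9 differed from untreated by 1.29 and 17424651 by 0.07.

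Car2, the fast cytosolic enzyme found in most tissues, was likewise lower in every treated culture, over a smaller span. It read 5.63 with TNF-α, 5.14 with BTZ and 7.51 untreated in differentiation medium, and 5.77, 5.15 and 8.39 in the same order in growth medium. Every treated array was below every untreated one, and both BTZ arrays lay within 0.1 of the floor. The differences were -1.89 for TNF-α and -2.37 for BTZ in differentiation medium, and -2.61 and -3.24 in growth medium. BTZ readings were lower than TNF-α readings by 0.48 in differentiation medium and 0.62 in growth medium.

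Car13, a cytosolic member with broad tissue expression, was lower in all 4 treated cultures as well. So were 14.2% of all genes above the floor, by any size, and the list was drawn up with these contrasts known. It read 9.14 with TNF-α, 9.27 with BTZ and 10.19 untreated in differentiation medium, and 9.89, 9.48 and 11.03 in the same order in growth medium. Car13 was far above the floor on every array. The differences were -1.05 for TNF-α and -0.92 for BTZ in differentiation medium, and -1.14 and -1.55 in growth medium. Car13 in differentiation medium therefore sat just past 2-fold with TNF-α and just short of it with BTZ.

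Car5b, a mitochondrial member that supplies bicarbonate to enzymes such as pyruvate carboxylase, followed BTZ more than TNF-α. It read 9.57 with TNF-α, 7.49 with BTZ and 9.56 untreated in differentiation medium, and 8.56, 7.56 and 9.31 in the same order in growth medium. Both BTZ arrays were the lowest, at almost the same level in the 2 media. The BTZ differences were -2.07 in differentiation medium and -1.76 in growth medium. For TNF-α the difference was 0.01 in differentiation medium, a sign that turns with the scaling (-0.02 after quantile normalization), and -0.75 in growth medium.

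Among members at least 2-fold lower in a treated culture, Car5b is the one with a promoter in the RefSeq promoter table used here. It is shown because Car5b was lower with BTZ in both media, and it spans 250 bases before to 50 after the annotated start, on the minus strand of GRCm38.p6 at chrX:164027961-164028260, read 5′ to 3′.
Car5b promoter: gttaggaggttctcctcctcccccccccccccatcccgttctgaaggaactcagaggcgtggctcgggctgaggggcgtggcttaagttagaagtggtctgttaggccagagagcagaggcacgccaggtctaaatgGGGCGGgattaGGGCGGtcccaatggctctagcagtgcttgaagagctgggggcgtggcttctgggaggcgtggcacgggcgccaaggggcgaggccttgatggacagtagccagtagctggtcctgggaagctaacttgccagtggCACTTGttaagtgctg
Capitals mark the motifs found on either strand, none of which overlap: the GC box GGGCGG at 2 places and the E-box CANNTG, the letters bound by myogenic factors, at 1 place. Of 32851 promoter windows of this length, 35.7% hold a GC box and 72.3% an E-box. The antioxidant response element TGACNNNGC, found in 12.4% of windows, and the heat shock element GAANNTTC, found in 7.86%, were searched too and are not in these letters.

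As gene values the surface enzymes lay near the floor, so small differences between cultures do not show whether their expression was stable. Car4, held on the membrane by a lipid anchor, read 4.80 with TNF-α, 4.86 with BTZ and 5.24 untreated in differentiation medium, and 5.42, 4.61 and 5.08 in the same order in growth medium. Car12, a transmembrane enzyme, ran only from 4.95 to 5.28. Car9, a transmembrane enzyme induced by hypoxia, read 5.32 with TNF-α, 4.72 with BTZ and 4.63 untreated in differentiation medium, and 4.80, 4.99 and 5.01 in the same order in growth medium. The higher Car9 value with TNF-α in differentiation medium came from 1 of its 2 probe sets: probe set 17413352 read 5.12 there and 3.82 untreated, a difference of 1.29, whereas probe set 17424651 differed by 0.07. No member of these 3 was past 2-fold in a comparison.

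Counts of members can be read beside all genes above the floor. With TNF-α in differentiation medium, 3 of 7 members (Car2, Car3, Car13) were at least 2-fold lower, where 0.879% of all genes were. With BTZ in that medium 3 of 7 were (Car2, Car3, Car5b), beside 8.91% of all genes. In growth medium 3 of 7 were with TNF-α (Car2, Car3, Car13), beside 1.02%, and 4 of 7 with BTZ (the same 3 and Car5b), beside 6.16%. The number of members at least 2-fold higher was 0 in all 4 comparisons, where between 0.982% and 6.05% of all genes were. Car2, Car3 and Car13 were lower, by any size, in all 4 treated cultures, as were 14.2% of genes, and Car2 and Car3 were at least 2-fold lower in all 4, as were 0.227% of genes. These contrasts chose the list, so nothing is read from the shares. The muscle identity genes named above were also lower on average in each treated culture, by the means given there, and their part in the carbonic anhydrase differences was not tested.

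**Figure D3:**
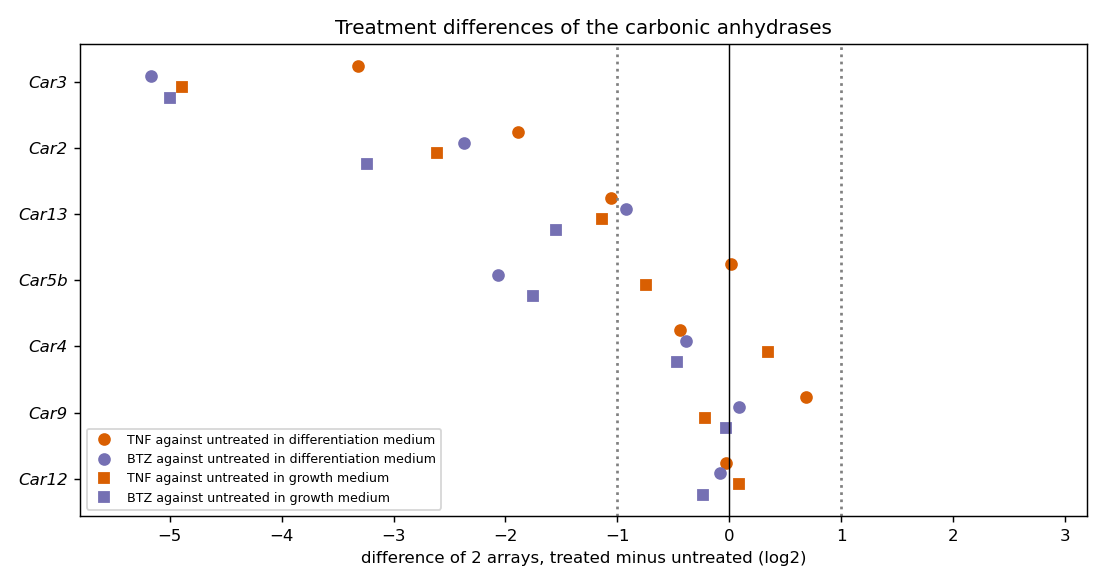
Difference of 2 arrays, treated minus untreated in the same medium (log2, horizontal axis), for each carbonic anhydrase, with TNF-α in orange, BTZ in purple, circles for differentiation medium and squares for growth medium; dotted lines mark 2-fold. Car3 ran from -5.16 to -3.32, Car2 from -3.24 to -1.89 and Car13 from -1.55 to -0.92, Car5b passed 2-fold with BTZ, and Car4, Car9 and Car12 did not pass it.

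The treatment differences of the members were set side by side between media, over 4 arrays and without a test. For Car3 the TNF-α difference was -3.32 in differentiation medium and -4.89 in growth medium, smaller in size by 1.57 in differentiation medium, while the BTZ difference was -5.16 in differentiation medium and -5.00 in growth medium. Car2 had smaller differences in differentiation medium for both agents, by 0.73 and 0.87, and its untreated level there was lower by 0.87. For Car13 the TNF-α differences of the media were within 0.08 of each other and the BTZ differences 0.63 apart.

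Medium was the one factor that could be tested, because 3 pairs of arrays (TNF-α, BTZ and untreated) differ by it. The pairs do not differ by medium alone. The labels give a harvest day for the differentiation medium cultures only, so medium cannot be separated from differentiation or time in culture. The list was chosen by the lower Car2 and Car3 values in treated cultures. Earlier results of these data were known, so the choice may not have been blind to medium. None of the members passed: 0 of 7 had an adjusted p under 0.05 in limma's additive fit of medium and treatment, beside 4.03% of all genes (1.56% higher and 2.47% lower in differentiation medium), and 1 of 7 had an unadjusted p under that value. Car13 came nearest. Its mean over 3 arrays was 9.53 in differentiation medium and 10.13 in growth medium, lower in all 3 pairs, with a log2 difference of -0.60 ± 0.17 (SE) and a 95% interval of -1.01 to -0.19. In limma its p was 0.012 and its adjusted p 0.111. Over the alternatives tried its adjusted p was between 0.0032 and 0.572, and it passed only without the BTZ arrays, where the difference was -0.80.

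For the other members the interval of the medium effect included 0. Car3 averaged 7.51 in differentiation medium and 7.21 in growth medium, a difference of 0.29 ± 0.35 (SE; limma adjusted p = 0.676), with an interval of -0.58 to 1.17. Its pairs disagreed: 1.40 between the TNF-α cultures, -0.34 between the BTZ cultures and -0.17 between the untreated ones. Car2 differed by -0.34 ± 0.21 (SE; limma adjusted p = 0.387), lower in 3 of 3 pairs, although the BTZ pair, near the floor, differed by -0.01. Car5b differed by 0.40 ± 0.23 (SE; limma adjusted p = 0.364), with 1.01 between the TNF-α cultures. Intervals this wide leave room for a change of 1.5-fold or more in Car3, Car2 and Car5b, and the fit has 2 residual degrees of freedom, with any difference of a treatment between media counted as error. Between the untreated cultures alone, 0 of 7 members were past 2-fold in either direction, where 3.92% of genes were lower and 4.83% higher.

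**Figure D4:**
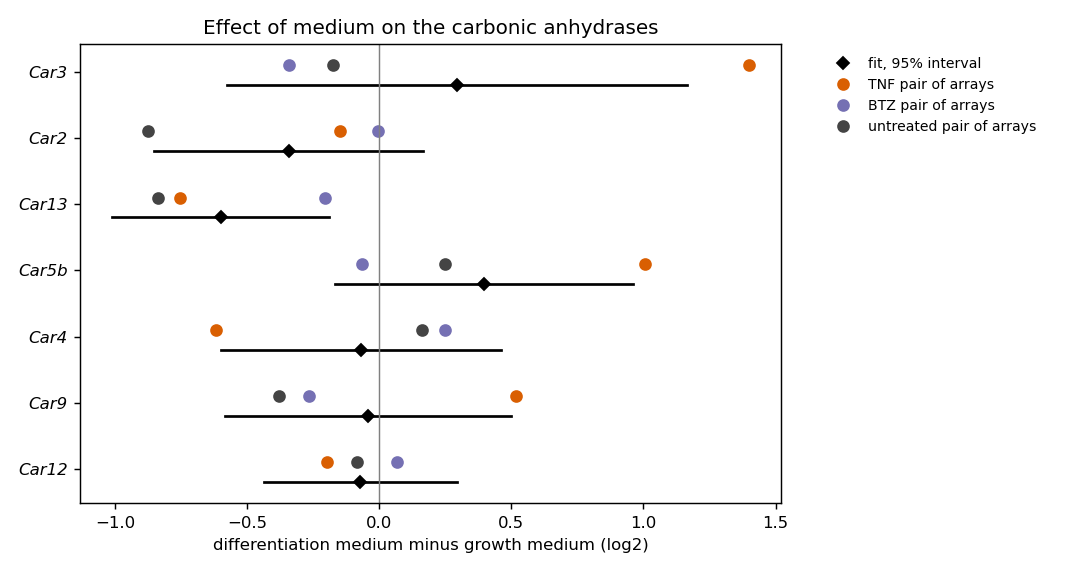
Difference between differentiation medium and growth medium (log2, horizontal axis) for each carbonic anhydrase, as the TNF-α, BTZ and untreated pair of arrays (coloured points) and as the fitted effect with its 95% interval (black). The interval of Car13 runs from -1.01 to -0.19, and the TNF-α pairs of Car3 (1.40) and Car5b (1.01) stand apart from their other pairs.

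RefSeq places Car13, Car1, Car3 and Car2 next to one another on chromosome 3 in GRCm38.p6, with 3 pseudogenes or long noncoding RNAs of that table between them. The other members lie on chromosomes 4 (Car9), 9 (Car12), 11 (Car4) and X (Car5b). The 3 members lower in all treated cultures lie in this cluster, and the part of their position was not tested. Car7, Car8 and Car11, which lie elsewhere and are described below, were also lower by any size in all 4. With TNF-α in differentiation medium Car7 and Car8 differed by only -0.013 and -0.0041. Car1, the red cell enzyme that lies inside the cluster, was under the floor on all arrays, between 3.28 and 3.71. Rbis, the nearest measured gene on the Car13 side, read 7.36 with TNF-α, 7.26 with BTZ and 7.33 untreated in differentiation medium, and 7.63, 7.57 and 7.18 in the same order in growth medium. Its treatment differences ran from -0.07 to 0.45, within 2-fold. On the Car2 side the measured genes A930001A20Rik, Gm9733 and Sirpb1a were under the floor on all arrays.

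Of 9 further carbonic anhydrases 7 were measured and 4 reached the floor (Car6, Car7, Car8 and Car11). Car7, Car8 and Car11 were lower by any size in all 4 treated cultures, as 14.2% of genes were. With TNF-α in differentiation medium Car7 and Car8 differed by only -0.013 and -0.0041, and once all arrays had a common median both signs turned (0.035 and 0.044). Car8, which has lost the catalytic activity and binds the inositol trisphosphate receptor, read 6.24 with TNF-α, 5.66 with BTZ and 6.24 untreated in differentiation medium, and 8.60, 6.11 and 9.23 in the same order in growth medium. It was high only in the TNF-α and untreated cultures in growth medium, and BTZ differed from untreated there by -3.12. Car6, a secreted enzyme of saliva, read 4.09 with TNF-α, 6.61 with BTZ and 3.99 untreated in differentiation medium, and 4.19, 6.97 and 4.31 in the same order in growth medium. Its BTZ differences were 2.63 in differentiation medium and 2.66 in growth medium, each against an array under the floor. Car11, also without catalytic activity, read 7.19 with TNF-α, 6.35 with BTZ and 7.29 untreated in differentiation medium, and 5.83, 5.62 and 6.32 in the same order in growth medium. It was higher in differentiation medium in all 3 pairs, by 1.02 ± 0.17 (SE; limma adjusted p = 0.037).

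Genes that work alongside carbonic anhydrases are given by list, beside the shares of all genes above the floor. Of 9 bicarbonate and anion transporters above the floor, 0 were past 2-fold with TNF-α in differentiation medium, where 2.01% of genes were higher and 0.879% lower. With BTZ in that medium 1 was lower, the exchanger Slc4a3, at 6.41 with BTZ and 8.35 untreated (-1.94), where 8.91% of genes were lower. In growth medium the sodium bicarbonate cotransporter Slc4a4 was at 6.83 with TNF-α and 5.31 untreated (1.52), the one of 9 past 2-fold, where 0.982% of genes were higher. With BTZ in that medium 2 of 9, Slc26a11 (1.07) and Slc4a11 (1.04), were higher, where 4.99% of genes were. The list's medians were 0.01, -0.36, 0.07 and -0.03 for TNF-α then BTZ, differentiation medium before growth medium, and the medians of all genes lay between 0.00 and 0.03.

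Of 10 genes of proton and lactate transport, 0 were past 2-fold with TNF-α in either medium. Of all genes, 2.01% were higher and 0.879% lower in differentiation medium, and 0.982% and 1.02% in growth medium. With BTZ in differentiation medium the lactate exporter Slc16a3 was at 5.63 with BTZ and 7.11 untreated (-1.48) and the sodium-proton exchanger Slc9a8 at 9.56 with BTZ and 8.31 untreated (1.25). With BTZ in growth medium Slc9a9 differed by -1.20 and the proton channel Hvcn1 by 1.07. Thus 1 of 10 was higher and 1 lower with BTZ in each medium. Of all genes, 6.05% were higher and 8.91% lower in differentiation medium, and 4.99% and 6.16% in growth medium. Of 8 enzymes that use bicarbonate, 2 were at least 2-fold lower with BTZ in differentiation medium, the propionyl-CoA carboxylase subunit Pccb (-1.48) and pyruvate carboxylase, Pcx (-1.03), where 8.91% of genes were. Both lie in the mitochondrion, as Car5b does. Other mitochondrial enzymes of the list, Pcca (0.30), Mccc1 (0.34) and Mccc2 (0.001), were not lower with BTZ in differentiation medium. With BTZ in growth medium Pcx differed by 0.36 and Pccb by -0.58. With TNF-α in both media and with BTZ in growth medium 0 of 8 were past 2-fold, where between 0.879% and 6.16% of genes were in a given direction.

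Hypoxia-inducible genes, the group to which Car9 belongs, had a median difference of 0.56 with TNF-α in differentiation medium, where that of all genes was 0.01. Of 19 such genes 3 passed 2-fold upward and 0 downward, beside 2.01% and 0.879% of all genes. The mitophagy receptor Bnip3 was at 8.75 with TNF-α and 7.35 untreated (1.40), and the peptide hormone precursor Adm differed by 1.28. In growth medium with TNF-α 1 of 19 was higher, the prolyl hydroxylase Egln3 (1.64), beside 0.982% of all genes, with a list median of 0.23. With BTZ 2 of 19 were higher and 2 lower in differentiation medium (median 0.07), beside 6.05% and 8.91% of all genes. In growth medium 2 were higher and 0 lower with BTZ (median 0.28), beside 4.99% and 6.16%.

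Slow-fibre genes, the muscle programme that Car3 marks in adult rodents, had another order of cultures. Of 8 above the floor, 7 were at least 2-fold higher in untreated differentiation medium than in untreated growth medium (median 3.48), beside 4.83% of all genes, with Casq2 at 10.80 in differentiation medium and 5.09 in growth medium. Car3 was at 10.33 in differentiation medium and 10.51 in growth medium. With TNF-α 0 of 8 were past 2-fold in either medium, with medians of -0.36 in differentiation medium and -0.41 in growth medium. With BTZ 7 of 8 were lower in differentiation medium (median -2.36, Mb at -3.38 and Tnni1 at -3.31), beside 8.91% of all genes. In growth medium 1 was higher with BTZ (Tnnc1 at 1.21) and 0 lower, beside 4.99% and 6.16%. The adipocyte list had 0 of 6 past 2-fold with TNF-α in either medium. With BTZ it had 0 in differentiation medium and 1 lower in growth medium, Lpl at -1.19, with its BTZ array under the floor. Of all genes, between 0.879% and 2.01% were past 2-fold in a given direction with TNF-α, and between 4.99% and 8.91% with BTZ.

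Genes with the profile most like that of Car3 or Car2 were sought among 1142 genes above the floor that spanned at least 2 log2 units. Likeness was the root mean square difference between the profiles over the 6 arrays, each gene taken relative to its own mean, so that a smaller value is a closer match. Profiles were not scaled to a common span, so the value depends on the size of the differences as well as on their direction. For Car3 the nearest were asporin (Aspn, 0.83), osteomodulin (Omd, 0.83) and osteoglycin (Ogn, 0.92), all small leucine-rich proteoglycans of the matrix, then Dhrs3 (1.02), which reduces retinaldehyde to retinol, and the secreted matrix protein Spon2 (1.06). Aspn and Omd were under the floor in all 4 treated cultures, between 4.04 and 4.36 and between 3.27 and 4.27. Car2 stood at 1.11 from Car3, Car5b at 1.65, Car13 at 1.78, and the near-floor Car4, Car12 and Car9 at 2.16, 2.21 and 2.26.

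For Car2 the nearest was Dhrs3, at 0.35. It read 6.69 with TNF-α, 5.56 with BTZ and 8.61 untreated in differentiation medium, and 6.26, 5.71 and 8.53 in the same order in growth medium. It was followed by Spon2 (0.54), the cyclic AMP phosphodiesterase Pde7b (0.54), the secreted leucine-rich repeat protein Lrrc17 (0.54) and Omd (0.56). Besides Omd, Pde7b was under the floor with BTZ in both media and with TNF-α in growth medium, and Lrrc17 with BTZ in growth medium. Car13 was at 0.69 from Car2, Car5b at 0.90 and Car3 at 1.11. The near-floor Car4, Car12 and Car9 stood at 1.13, 1.19 and 1.29 from Car2, not far beyond Car3. Dhrs3, Spon2 and Omd were among the 5 nearest of both Car2 and Car3.

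**Figure D5:**
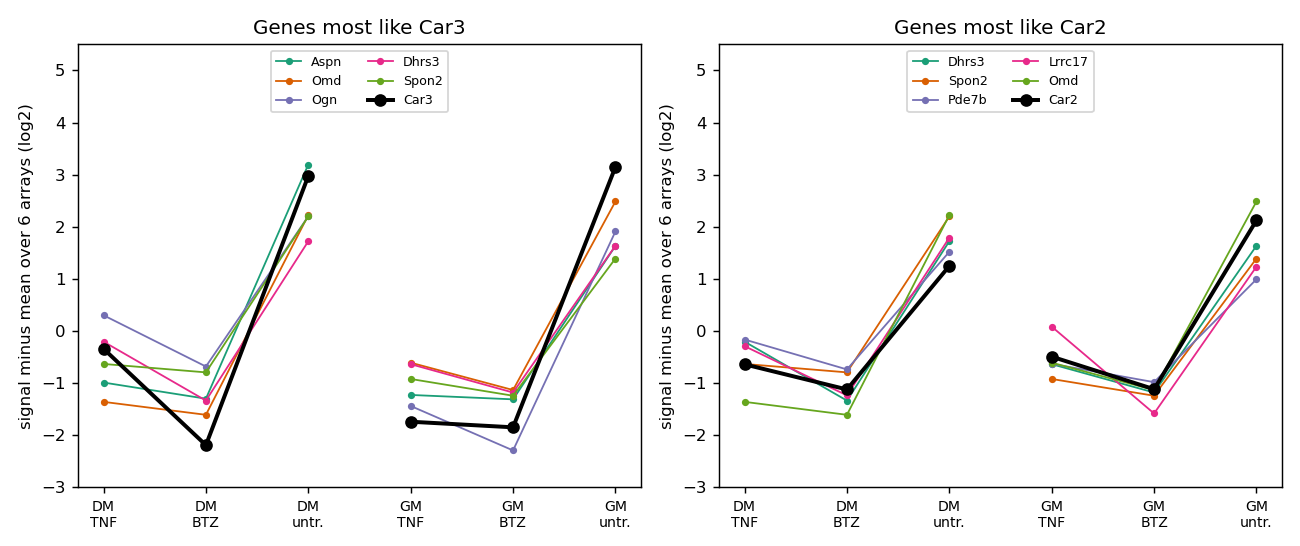
Signal relative to each gene's own mean over the 6 arrays (log2, vertical axis) for Car3 (left, black) and Car2 (right, black) and the 5 genes nearest to each (colours), on each array, differentiation medium (DM) left of growth medium (GM), lines joining cultures of 1 medium. All the genes drawn were highest in the untreated cultures, and Car3 was lowest with BTZ in differentiation medium (-5.16 against the untreated array).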

How the data were processed

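The deposited table holds 1 value per probe set and array, taken as log2 signals because values run from about 2 to 14. Total RNA was amplified and biotin-labelled by a whole-transcript protocol, per the labels' protocols; how signals were background-corrected, normalized and summarized is not given in the sources used here. No further scaling was applied. Of 41345 probe sets, 23521 named 1 gene, 1814 several and 16010 none; a gene was the mean of its probe sets. All 7 members' Entrez numbers matched RefSeq. Treatment comparisons were differences of 2 arrays, counted at 2-fold with no p-value. Medium was tested with limma 3.58.1 under R 4.3.3 (moderated fit with a mean trend, additive medium and treatment, 6 arrays, Benjamini-Hochberg over 13652 genes above the floor). The fit was run on simulated data with additive effects and independent noise. Those data hold no difference of a treatment between media, so they do not show how the fit behaves where there is one. The members and lists were chosen with earlier results of these data known. Genes named were all members, the 2 list genes with the largest difference past 2-fold, the 5 nearest profiles and chromosome neighbours. Whether cultures were independent is not stated, so p-values measure only the spread between these arrays. Alternatives were array scaling (common median, quantile), the highest probe set, the floor, eBayes without trend and leaving out a treatment.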

Additional observations from a re-analysis of the deposited data

Results flagged for a closer look

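Some members had treatment differences of opposite sign in the 2 media, each a difference of 2 arrays, and the difference between media was not tested. With TNF-α, Car4 differed by -0.44 in differentiation medium and by 0.34 in growth medium, and in the same order of media Car9 by 0.68 and -0.21, Car12 by -0.025 and 0.092, and Car5b by 0.013 and -0.75. With BTZ, Car9 differed by 0.089 in differentiation medium and by -0.024 in growth medium. None of these values is past 2-fold. Some of the signs turn with the processing: with its highest probe set the BTZ difference of Car9 was -0.22 in differentiation medium and -0.076 in growth medium, the TNF-α difference of Car12 in differentiation medium was 0.023 once all arrays had a common median, and that of Car5b was -0.019 after quantile normalization.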

How the results depend on the processing

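Of 105 member differences recomputed under other scalings or with the highest probe set, 104 moved by less than the gene's residual SD in the additive fit, and 0 of those past 2-fold changed sign. The other was Car9 with TNF-α in differentiation medium, 0.07 with its highest probe set and 0.68 as the mean. The number of members at least 2-fold lower with BTZ in differentiation medium was 4 after quantile normalization, where Car13 reached -1.02, and 3 otherwise; the other counts did not move under the scalings, the highest probe set or the floors tried. With the floor 1 log2 unit higher, 4 members were left. The number of members called for medium in limma was 1 without the BTZ arrays, Car13 at -0.80 (adjusted p = 0.0032), and 0 in the other alternatives; the cause was not tested. No paired analysis was possible because each group has 1 array, all numbered 1; the fit of medium pairs arrays by treatment, not by replicate number. No detection calls were used, so how far background enters the low signals of Car2 and Car3 in treated cultures was not measured.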
